A study of Mus musculus with 4 samples.

Results

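The genes described here are 35 genes of glucose transport, glycolysis, the pentose phosphate branch and the response to low oxygen, taken by name from the 12393 genes that had a probe set with 1 gene symbol on the array. They comprise 17 glycolytic enzymes, 2 transporters, 1 regulator of glycolysis, 2 pentose phosphate enzymes, 2 subunits of the hypoxia-inducible factor (HIF) and 11 HIF targets. Of the 35, 30 had such a probe set, and 26 of these passed the filter on dim signals and were tested. Slc16a3, Epas1, Adm and P4ha2 lay below the filter. Hk3, Gpi1, Eno1 and G6pdx were not analysed here, and Gapdh was read from the array's control probe sets alone. The study measured tumour-associated macrophages sorted by flow cytometry from collagenase-digested tumours of GIST mice, a model of a sarcoma that arises in the wall of the gut (gastrointestinal stromal tumour). One group of 8 mice drank water with 600 mg/L imatinib over 2 weeks, a drug that blocks kinases including Kit, and the other group of 8 mice had vehicle. The labels give no further genotype, strain or age, and they do not name the antigens used for sorting. Cells were pooled by group and each pool was run on 2 Affymetrix arrays. The design text calls these arrays duplicates of a pool and the sample titles call them biological replicates, so p-values measure only the spread between these arrays, which may be technical.

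Glycolysis turns glucose into pyruvate and lactate. Glucose enters through Slc2a1 (Glut1), is trapped by hexokinase, passes the phosphofructokinase step that sets the rate, and ends as pyruvate, which lactate dehydrogenase reduces to lactate for export by Slc16a3. Macrophages lean on this route when they are activated by inflammatory stimuli or sit in tissue that is short of oxygen. When oxygen is low, the Egln prolyl hydroxylases stop marking the HIF alpha subunits for destruction. HIF then binds promoters and enhancers at short motifs with the core ACGTG or GCGTG and raises many glycolytic genes together with targets outside the pathway, such as Egln3, Ndrg1, P4ha1 and Higd1a.

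The promoters of 33 members were found in RefSeq's GRCm38.p6 table, as windows from 250 bases before to 50 bases after each annotated start. Ndrg1 and Epas1 had no window there. ACGTG, on either strand and so also as CACGT, occurred in at least 1 window of 23 of these 33 genes (69.7%), against 21.8% of all 27025 genes of the table. GCGTG, also read as CACGC, occurred in 22 of the 33 (66.7%), against 35.2% of all genes. A gene can have several windows, 49 for the 33 members and 32851 for all genes. Counted by window, the shares were 53.1% against 19.6% for ACGTG and 55.1% against 32.4% for GCGTG. The members with ACGTG included 11 of 17 glycolytic enzymes and 7 of the 10 HIF targets found. The palindrome CACGTG holds ACGTG on both strands and is also the core that Myc and its relatives recognise. It occurred in 4 of the 33 members (12.1%), against 8.09% of all genes. Both ACGTG and GCGTG contain CG, and the genes compared were not matched for base composition or expression. A match is a description of the letters and not evidence of binding. The 5 windows below have every ACGTG and GCGTG on either strand in capitals, and of Ldha's 2 windows the one with more ACGTG is given. Pgk1 and Ldha are enzymes that were lower with imatinib, Higd1a and Egln3 are HIF targets that were lower, and P4ha1 is the HIF target with the highest log2 difference.
Pgk1 promoter (chrX:106186850-106187149, plus strand): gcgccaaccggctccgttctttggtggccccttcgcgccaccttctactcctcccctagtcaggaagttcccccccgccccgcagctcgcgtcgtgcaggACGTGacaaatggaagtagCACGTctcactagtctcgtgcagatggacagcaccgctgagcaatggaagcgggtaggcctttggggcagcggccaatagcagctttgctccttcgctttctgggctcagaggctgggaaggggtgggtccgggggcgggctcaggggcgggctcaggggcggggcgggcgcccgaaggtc
Ldha promoter (chr7:46845554-46845853, plus strand): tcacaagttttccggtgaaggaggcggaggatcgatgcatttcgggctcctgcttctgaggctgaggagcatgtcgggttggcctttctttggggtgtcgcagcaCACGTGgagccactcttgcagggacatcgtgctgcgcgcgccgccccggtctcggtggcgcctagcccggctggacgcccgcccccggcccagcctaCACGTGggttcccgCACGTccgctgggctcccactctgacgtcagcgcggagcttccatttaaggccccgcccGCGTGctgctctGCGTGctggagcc
Higd1a promoter (chr9:121857747-121858046, minus strand): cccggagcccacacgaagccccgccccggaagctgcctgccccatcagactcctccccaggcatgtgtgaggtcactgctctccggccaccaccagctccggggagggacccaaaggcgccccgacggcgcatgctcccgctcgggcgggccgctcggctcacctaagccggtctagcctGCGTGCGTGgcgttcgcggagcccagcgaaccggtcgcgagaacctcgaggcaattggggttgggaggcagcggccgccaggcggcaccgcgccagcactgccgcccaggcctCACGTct
Egln3 promoter (chr12:54203825-54204124, minus strand): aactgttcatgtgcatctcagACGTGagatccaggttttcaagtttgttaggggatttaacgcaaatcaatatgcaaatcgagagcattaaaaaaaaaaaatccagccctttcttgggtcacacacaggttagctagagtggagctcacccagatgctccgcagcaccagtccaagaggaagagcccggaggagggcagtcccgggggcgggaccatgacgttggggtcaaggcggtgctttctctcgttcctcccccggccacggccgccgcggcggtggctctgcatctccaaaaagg
P4ha1 promoter (chr10:59323046-59323345, plus strand): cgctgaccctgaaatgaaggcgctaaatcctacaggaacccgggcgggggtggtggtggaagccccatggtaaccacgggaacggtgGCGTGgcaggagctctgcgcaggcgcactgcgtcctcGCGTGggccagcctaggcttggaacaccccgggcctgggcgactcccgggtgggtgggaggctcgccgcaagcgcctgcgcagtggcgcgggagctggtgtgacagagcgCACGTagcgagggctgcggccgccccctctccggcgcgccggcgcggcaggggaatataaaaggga

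The sorted cells carried macrophage transcripts on all 4 arrays, and transcripts of other cells differed between the groups. Summed over 14 macrophage identity markers, the signal was 175833 and 168607 on the imatinib arrays, against 141895 and 141694 on the vehicle arrays, and 10 of the 14 were called higher. Mertk rose in this list (log2 difference 1.16), Lyz2 did too (0.86), and Csf1r was not called (0.12). Summed over 14 epithelial markers, the signal was 7786 and 7588 with imatinib, against 38197 and 38752 with vehicle, and all 14 fell, with Epcam at a log2 difference of -2.42 and Krt8 at -2.33. Of 9 fibroblast markers tested, 7 fell, and the summed signal of the 10 measured was 3569 and 3935 with imatinib, against 7412 and 8150 with vehicle. Of 4 markers of GIST cells and interstitial cells of Cajal, 2 fell, Kit (-0.64) and Edn3 (-0.91). Edn3 lost its call without the filter (limma adjusted p = 0.0796). Ano1 (-0.25) and Prkcq (0.44) were not called, and both imatinib arrays of Prkcq lay above both vehicle arrays. The summed signal of this list was 1001 and 1042 with imatinib, against 1560 and 1423 with vehicle. Of 2 smooth muscle markers tested, Acta2 fell (-0.82). Neutrophil markers moved the other way, with 2 of 3 called higher (S100a8 and Csf3r). Their summed signal was 757.2 and 697.1 with imatinib, against 405.4 and 470.1 with vehicle. S100a8 passed the filter through its imatinib arrays, and both vehicle arrays lay below the filter level of 79.8. Without the filter neither gene was called (limma adjusted p = 0.101 for S100a8 and 0.0513 for Csf3r). None of 4 endothelial and 4 T cell markers was called in limma, or had an unadjusted p under 0.05. No marker on these lists was at 0 on all arrays. In pooled bulk RNA, fewer cells of a type and less RNA per cell cannot be told apart. The part of these other cells in the differences given below was not tested. The Gapdh control probe sets had a 3' over 5' ratio, a measure of RNA integrity and labelling, of 2.34 and 2.09 with imatinib and 2.91 and 2.76 with vehicle.

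With imatinib, 8 of the 26 members tested fell and none rose (P4ha1 and Kdm3a were higher at an unadjusted p under 0.05). Of the 8, the 5 enzymes of glycolysis fell by small amounts and the 3 HIF targets fell by more. The 5 enzymes were Hk1, Pfkp, Aldoa, Pgk1 and Ldha, and the 3 HIF targets were Ndrg1, Higd1a and Egln3. The test was limma across 8145 genes on log2(signal + 32). The p-values were adjusted by Benjamini-Hochberg, and a gene was called at an adjusted p below 0.05. It called 8.73% of all tested genes lower and 6.8% higher. The 15 members whose imatinib arrays both lay below both vehicle arrays compare with 29.9% of all tested genes, and the 2 members whose imatinib arrays both lay above with 26.1%. With the array medians set equal, 4 members were lower (Pfkp, Ndrg1, Higd1a and Egln3) and 2 were higher (P4ha1 and Kdm3a), where 6.04% of all genes were lower and 12.9% higher. With the macrophage identity markers set equal, 23 members were lower, as were 63.0% of all genes (64.4% were called in either direction). Leaving out 1 array left 3 members lower without either vehicle array and 5 without either imatinib array.

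**Figure D1:**
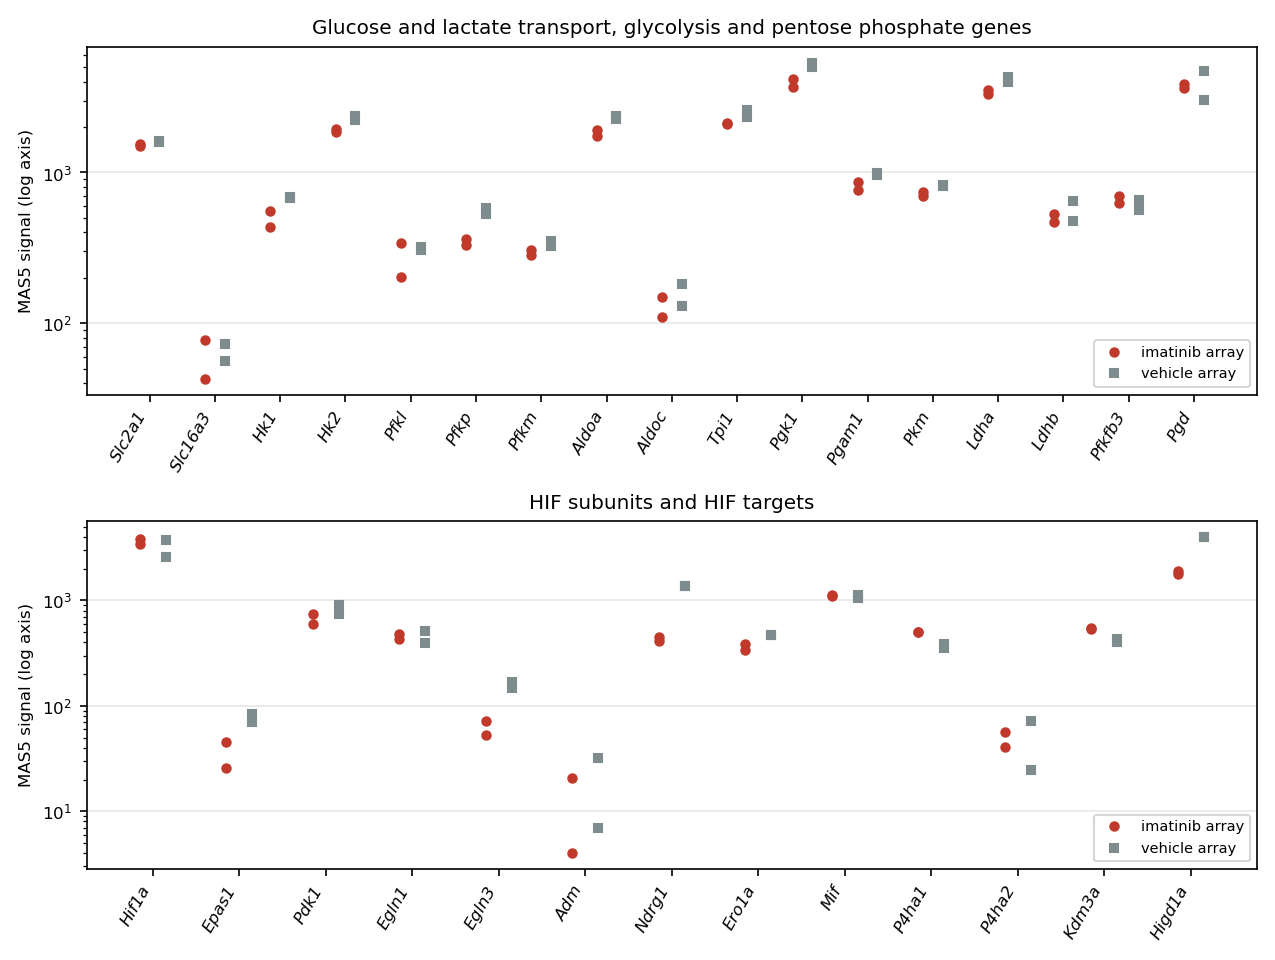
MAS5 signal of each of the 30 members with a probe set of 1 symbol (vertical log axis) on the 2 imatinib arrays (circles, left of each gene) and the 2 vehicle arrays (squares, right). Ndrg1, Higd1a and Egln3 lie well apart between the groups, while the glycolytic genes of the upper panel lie close together. Heights of different genes come from different probe sets and are not comparable.

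Neither transporter showed a called difference. Slc2a1, the main glucose transporter of many activated cells, had signals of 1552 and 1507 on the imatinib arrays, against 1587 and 1624 on the vehicle arrays. The imatinib arrays lay just below, and the log2 difference of -0.07 ± 0.09 (SE) did not pass (limma adjusted p = 0.676; 95% confidence interval from -0.27 to 0.13). Slc16a3, the lactate exporter, was below the filter with signals of 77.3 and 42.9 with imatinib and 72.9 and 56.6 with vehicle, which overlap.

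Among the hexokinases, which trap glucose in the cell, Hk1 was lower. Its signals were 434.3 and 554.7 with imatinib, against 679.2 and 687.7 with vehicle, so the groups were apart and the imatinib arrays were the more variable. The log2 difference was -0.45 ± 0.14 (SE, limma adjusted p = 0.0489). Hk2, the inducible hexokinase and a well-known HIF target, had signals of 1937 and 1861 with imatinib, against 2234 and 2385 with vehicle. These groups did not overlap either, but the difference of -0.28 ± 0.09 missed the threshold (limma adjusted p = 0.056).

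Phosphofructokinase commits sugar to glycolysis and is built from liver, platelet and muscle type subunits. The platelet type, Pfkp, had the lowest log2 difference of the 13 enzymes tested, with signals of 361.7 and 328.0 with imatinib, against 578.0 and 527.0 with vehicle. Its ratio of imatinib over vehicle was 0.645, or -0.63 ± 0.14 on the log2 scale (SE, limma adjusted p = 0.00883), and its groups were clearly apart. The liver type, Pfkl, had 202.9 and 338.5 with imatinib, against 322.8 and 307.5 with vehicle (-0.23 ± 0.21). Its first imatinib array lay below both vehicle arrays and its second above both. Without imatinib replicate 1 the log2 difference was 0.09. The muscle type, Pfkm, had 306.1 and 284.0 with imatinib, against 326.1 and 351.0 with vehicle (-0.18 ± 0.15). Neither Pfkl nor Pfkm passed. Pfkfb3, which makes the sugar phosphate that switches phosphofructokinase on, had 630.0 and 700.0 with imatinib, against 560.6 and 655.1 with vehicle. These overlap, and the log2 difference was 0.13 ± 0.13.

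Farther down the pathway, Aldoa, the aldolase of most tissues, had signals of 1747 and 1920 with imatinib, against 2360 and 2248 with vehicle, and fell by 0.33 on the log2 scale (SE 0.09, limma adjusted p = 0.0335). Aldoc, the brain-type aldolase, was dim, with 149.9 and 109.4 with imatinib, against 129.5 and 182.4 with vehicle, and its groups overlapped (-0.21 ± 0.24). Tpi1, which interconverts the aldolase products, had 2113 and 2088 with imatinib, against 2581 and 2340 with vehicle (-0.22 ± 0.09, limma adjusted p = 0.123). Both Aldoa and Tpi1 had every imatinib array below every vehicle array, and Aldoa alone passed.

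Pgk1, the first enzyme of the pathway to yield ATP, had signals of 4165 and 3676 with imatinib, against 5016 and 5336 with vehicle. All imatinib values lay below, and Pgk1 fell by 0.40 on the log2 scale (SE 0.09, limma adjusted p = 0.00966). Pgam1, a mutase, had 761.8 and 867.5 with imatinib, against 990.5 and 955.4 with vehicle (-0.25 ± 0.11, limma adjusted p = 0.168). Pkm, the pyruvate kinase of macrophages, had 702.5 and 744.6 with imatinib, against 811.4 and 823.0 with vehicle (-0.17 ± 0.11). The arrays of both genes were separated by group, and neither passed.

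Lactate dehydrogenase is a tetramer of A and B subunits. Ldha, the subunit that favours lactate and is induced by HIF, had signals of 3506 and 3302 with imatinib, against 4280 and 3965 with vehicle, and fell by 0.27 on the log2 scale (SE 0.08, limma adjusted p = 0.0473). Ldhb, the heart-type subunit, had 469.3 and 526.4 with imatinib, against 643.7 and 474.1 with vehicle. The low second vehicle array made the groups overlap on this probe set, and the difference of -0.14 ± 0.16 did not pass. Pgd, the second oxidative enzyme of the pentose phosphate branch, which supplies NADPH, had 3885 and 3623 with imatinib, against 3031 and 4734 with vehicle. The vehicle arrays enclosed both imatinib arrays, and the log2 difference was -0.01 ± 0.16.

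The calls of the 5 enzymes changed with the scaling and with single arrays. With the array medians set equal, Pfkp alone stayed called (log2 difference -0.47, limma adjusted p = 0.0352), and Hk1, Aldoa, Pgk1 and Ldha had adjusted p from 0.188 to 0.614. Each of the 5 lost its call with at least 1 array left out, Hk1 without imatinib replicate 1 or either vehicle array, Aldoa likewise, Ldha with each of the 4 arrays left out in turn, Pgk1 without imatinib replicate 2 or vehicle replicate 2, and Pfkp without vehicle replicate 1 (limma adjusted p = 0.0525).

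**Figure D2:**
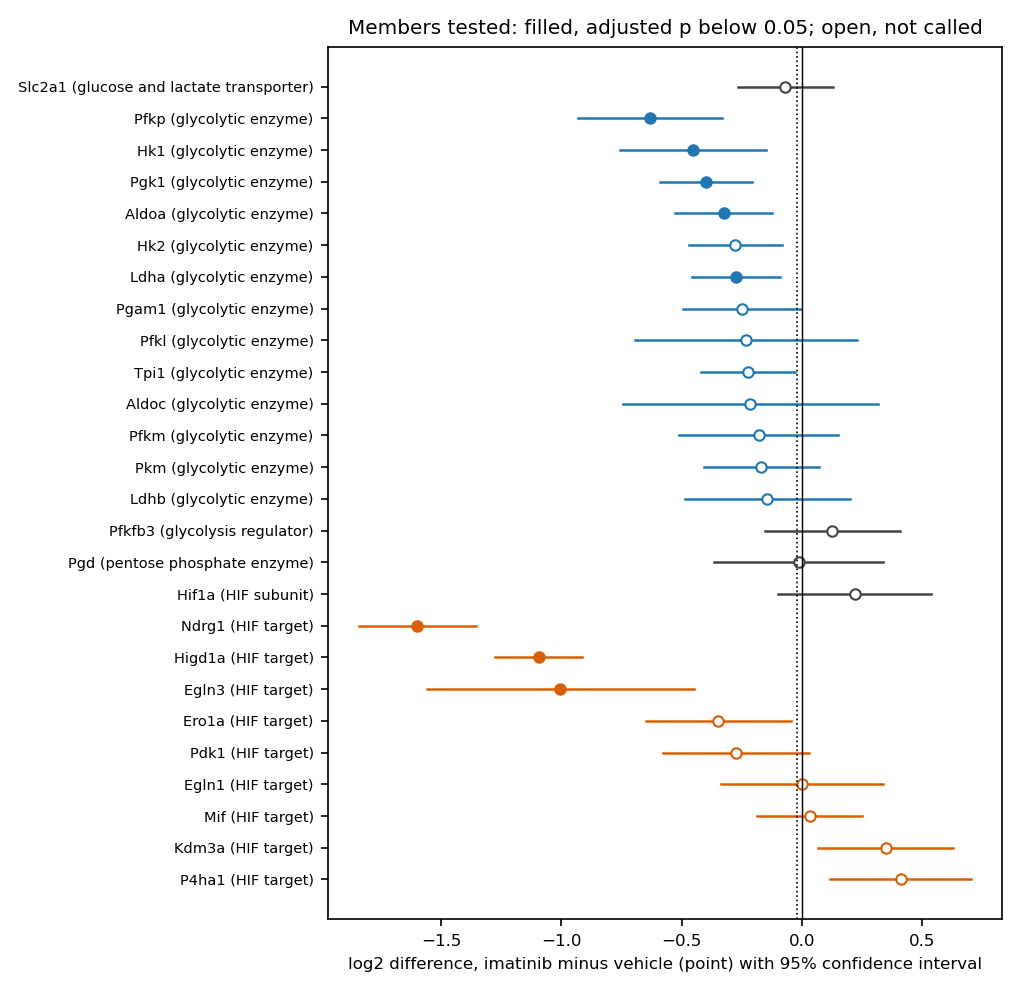
Log2 difference, imatinib minus vehicle, of the 26 members tested (horizontal axis), with bars for the 95% confidence interval of the limma fit. Filled points passed the adjusted threshold and open points did not, and the dotted line marks the median of all 8145 genes at -0.02. The enzymes (blue) form a narrow band from -0.63 to -0.14, and the HIF targets (orange) spread from -1.60 to 0.41.

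The HIF subunits themselves were not called. Hif1a, the oxygen-regulated subunit of most cells, had signals of 3837 and 3443 with imatinib, against 2584 and 3762 with vehicle. The first vehicle array stood low, the groups overlapped, and the log2 difference of 0.22 ± 0.14 (SE) did not pass (limma adjusted p = 0.361). Without vehicle replicate 2 it was 0.49 and passed (limma adjusted p = 0.0119), and without vehicle replicate 1 it was -0.05. Epas1, the other HIF alpha subunit and one that endothelium and some macrophages carry, was dim with 45.7 and 25.5 with imatinib, against 70.0 and 84.6 with vehicle. It lay below the filter, and without the filter its difference of -0.71 did not pass (limma adjusted p = 0.214).

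Ndrg1, a stress protein that hypoxia induces and that differentiated epithelia also contain, showed the largest change of the 26 members. Its signals were 447.3 and 411.6 with imatinib, against 1363 and 1366 with vehicle. The groups were far apart, with a ratio of imatinib over vehicle of 0.330 and a log2 difference of -1.60 ± 0.11 (SE, limma adjusted p = 3.28e-06). Higd1a, a hypoxia-induced protein of the mitochondrial inner membrane, had 1898 and 1801 with imatinib, against 3978 and 3995 with vehicle. This was a ratio of 0.468 and a log2 difference of -1.09 ± 0.08 (limma adjusted p = 5.91e-06), again with no overlap. Both genes were called lower under all 19 alternatives, in which Ndrg1 ranged from -2.05 to -1.06 and Higd1a from -1.55 to -0.71.

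Of the HIF prolyl hydroxylase genes, Egln3 fell, and Egln1 and Egln2 (0.28, limma adjusted p = 0.34) were not called. Egln3, the oxygen sensor that HIF strongly induces, had signals of 72.5 and 53.1 with imatinib, against 147.2 and 167.6 with vehicle, a log2 difference of -1.0 ± 0.25 (SE) that passed (limma adjusted p = 0.0205). Egln3 passed the filter of 79.8 through its vehicle arrays, and both imatinib arrays lay below that level. Without the filter it was not called (limma adjusted p = 0.0688), nor was it under quantile normalization. It also lost its call when either vehicle array or imatinib replicate 2 was left out. Egln1, the main oxygen sensor, had 478.9 and 432.0 with imatinib, against 518.6 and 397.8 with vehicle. The vehicle arrays enclosed the imatinib arrays, and the difference was 0.00 ± 0.15, with a 95% confidence interval from -0.34 to 0.34.

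Other HIF targets lay on both sides of 0. Ero1a (listed as Ero1l), an oxidase that forms disulphide bonds in the endoplasmic reticulum, had 342.3 and 383.9 with imatinib, against 470.4 and 469.8 with vehicle. Its arrays were separated, but -0.35 ± 0.14 did not pass (limma adjusted p = 0.12). Pdk1, the kinase that holds pyruvate back from mitochondrial oxidation, had 603.7 and 744.0 with imatinib, against 742.0 and 900.4 with vehicle, with a slight overlap (-0.27 ± 0.14). Mif, a cytokine, had 1113 and 1130 with imatinib, against 1128 and 1064 with vehicle, and its log2 difference was 0.03 ± 0.10.

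P4ha1 and Kdm3a had higher signals with imatinib. P4ha1, the catalytic subunit of collagen prolyl hydroxylase, had 504.9 and 500.8 with imatinib, against 386.7 and 354.7 with vehicle (log2 difference 0.41 ± 0.13, limma adjusted p = 0.0614). Kdm3a, a histone demethylase, had 543.3 and 533.5 with imatinib, against 406.2 and 426.3 with vehicle (0.35 ± 0.13, limma adjusted p = 0.0943). The groups did not overlap for either gene, and neither passed on the deposited scale with the 40th percentile filter. On that scale P4ha1 was called higher with a 60th percentile filter. With the array medians set equal both genes were called higher (limma adjusted p = 0.0101 for P4ha1 and 0.0206 for Kdm3a). On a scale that sets the macrophage identity markers equal their differences were -0.04 and -0.11. P4ha2, the sister subunit, and Adm, a vasodilator peptide, were too dim to test, with signals of at most 71.9 and 32.4 on any array.

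All 13 enzymes that passed the filter had log2 differences below 0, from -0.63 to -0.14 with a median of -0.25, and 5 were called. Of the 9 HIF targets that passed, 5 lay below 0 and 4 above, from -1.60 to 0.41 with a median of -0.27, and 3 were called. Over all 8145 genes the median was -0.02 and 52.8% lay below 0. Setting the array medians equal moved the median of all genes to 0.14, the enzymes' median to -0.09 with 12 of 13 below 0 (Ldhb was at 0.02), and the HIF targets' median to -0.11. That scaling moves every difference by the same amount, so the distance of a list from the median of all genes is fixed under it, at -0.23 for the enzymes and -0.25 for the HIF targets. Under quantile normalization these distances were -0.28 and -0.29. Single arrays moved the HIF targets' median more than the enzymes'. It was -0.13 without imatinib replicate 1, -0.42 without imatinib replicate 2, -0.35 without vehicle replicate 1 and -0.18 without vehicle replicate 2, while the enzymes' median ran from -0.29 to -0.23. With the mean of each gene's probe sets the medians were -0.28 for 12 enzymes and -0.11 for 8 HIF targets. The 2 lists do not separate genes that HIF induces from other genes, since Hk2 and Ldha, described above as HIF-induced, are among the enzymes. The lists were not tested against each other or against the other genes.

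**Figure D3:**
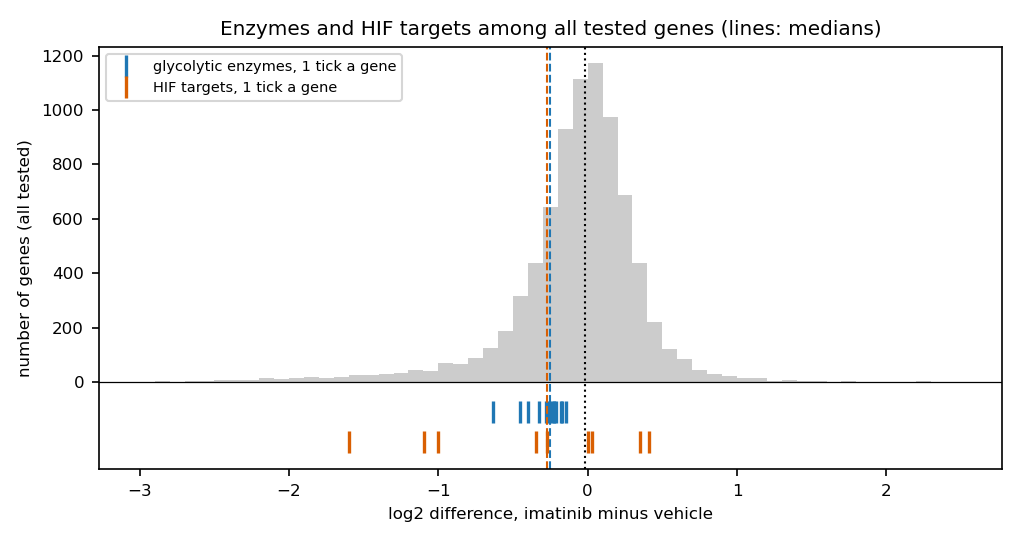
Histogram of the log2 differences, imatinib minus vehicle, of all 8145 tested genes (grey, number of genes in each bin), with a tick for each of 13 glycolytic enzymes (blue) and 9 HIF targets (orange) below it. Dashed lines mark the list medians at -0.25 and -0.27 and the dotted line the median of all genes at -0.02. The enzyme ticks crowd just left of the centre, while 3 HIF targets lie at -1.0 or lower.

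Where a gene had several probe sets above the filter, they can show whether the brightest one stands alone. Of 14 members with several, all probe sets pointed the same way in 8 and both ways in 6. All 4 probe sets of Ndrg1 were lower, from -1.60 to -1.06, and each passed when probe sets were tested singly. The 3 of Pgk1 ran from -0.43 to -0.21, the 4 of Aldoa from -0.38 to -0.19, and the 3 of Tpi1 from -0.44 to -0.15. The 4 of Ldhb were all below 0, and its other 3 probe sets (-0.38 to -0.43) lay lower than the brightest at -0.14. The probe sets of Slc2a1 ran from -0.07 to 0.18, those of Hif1a from -0.11 to 0.22 and those of Ero1a from -0.35 to 0.22. Those of Pdk1 ran from -0.27 to 0.04, those of Egln1 from -0.27 to 0.00 and those of Pgd from -0.17 to 0.09. These 6 genes have no settled direction. Several probe sets of Aldoa, Ldhb, Pgd, Pgk1, Tpi1 and Ndrg1 carry the suffix that marks possible cross-hybridisation. Glycolytic genes have many processed pseudogenes, so such signals can be shared. All 4 of Aldoa do, so Aldoa has no value without them. Without these probe sets Pgk1 had -0.21 and was not called (limma adjusted p = 0.147), and Ndrg1 had -1.06 and was (limma adjusted p = 0.0262).

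Gapdh, the dehydrogenase of mid-glycolysis and a common loading control, had overlapping groups at the 3' end of its transcript and in the middle. Its 3' control probe set had 3593 and 3430 with imatinib, against 3589 and 3704 with vehicle (log2 difference -0.05). The middle one had 1828 and 2129 with imatinib, against 2023 and 1880 with vehicle (0.02). The 5' one had 1537 and 1638 with imatinib, against 1233 and 1343 with vehicle, which is higher on both arrays (0.30). Control probe sets were not tested. The 3' to 5' ratio given above comes from these same 3' and 5' probe sets, so it is not a separate measure of the difference between the ends. The same ratio for beta-actin was 3.06 and 2.71 with imatinib and 3.99 and 3.58 with vehicle. The part of these ratios in the other differences was not tested.

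**Figure D4:**
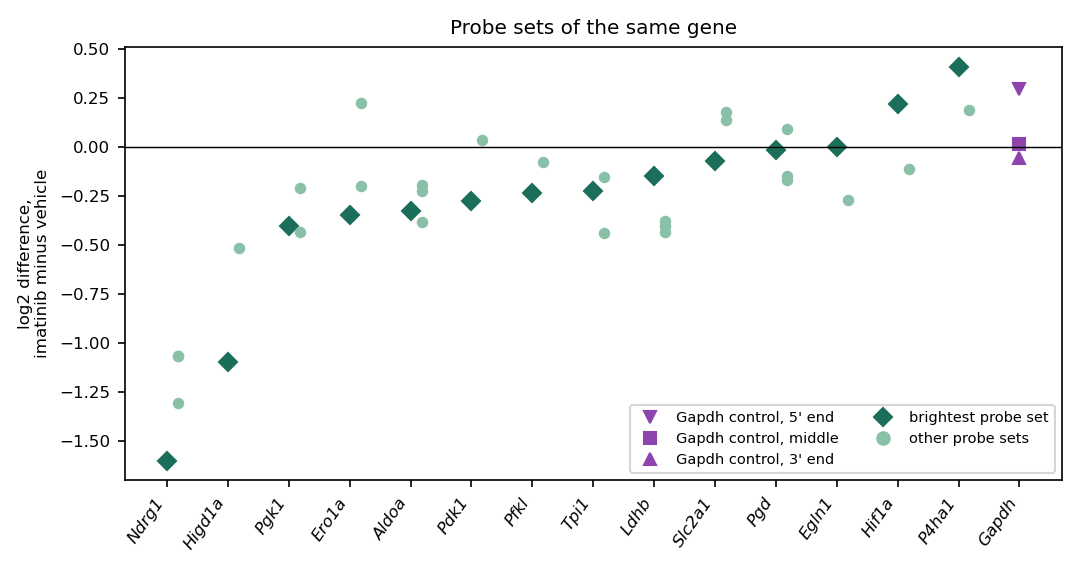
Log2 difference, imatinib minus vehicle (vertical axis), of every probe set above the filter for the 14 members with several (diamonds, brightest; circles, others) and of the 3 Gapdh control probe sets (purple). Ndrg1 and Higd1a are low on each of their probe sets, and Slc2a1, Hif1a, Ero1a, Pdk1, Egln1 and Pgd straddle 0. The Gapdh values run from -0.05 at the 3' end to 0.30 at the 5' end.

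Of 17 other glycolysis and sugar transport genes tested, 4 fell and 1 rose, with a median of 0.02. The shares called among all tested genes were 8.73% lower and 6.8% higher. Slc16a1, a lactate and pyruvate transporter of gut epithelium among other tissues, had 472.9 and 501.0 with imatinib, against 1600 and 2031 with vehicle (log2 difference -1.82 ± 0.13, limma adjusted p = 3.4e-06). Fbp2, a gluconeogenic enzyme (-1.42), Pgm1, a phosphoglucomutase (-0.68), and Bpgm, a mutase that makes the haemoglobin effector (-0.59), also fell. Pgm1 was not called without the filter (limma adjusted p = 0.114). Slc2a4, the insulin-responsive glucose transporter, rose by 1.04 at a dim signal of 116.1 and 144.7 with imatinib, against 34.5 and 61.6 with vehicle. It passed the filter through its imatinib arrays, both vehicle arrays lay below that level, and without the filter it was not called (limma adjusted p = 0.0909). Slc2a3, the high-affinity glucose transporter of leukocytes, had 438.5 and 425.7 with imatinib, against 316.2 and 333.7 with vehicle, which do not overlap but did not pass (0.38 ± 0.14, limma adjusted p = 0.0951).

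Of 20 other HIF targets tested, 3 rose and 4 fell, with a median of -0.06. Among all tested genes 6.8% were called higher and 8.73% lower. Cxcr4, a chemokine receptor, had 5170 and 5308 with imatinib, against 1917 and 2060 with vehicle (log2 difference 1.38 ± 0.08, limma adjusted p = 1.07e-06). Hmox1, the haem-degrading enzyme, rose by 1.10 and Ddit4, an inhibitor of mTOR signalling, by 0.60. Tfrc, the transferrin receptor, had 469.5 and 543.4 with imatinib, against 1405 and 1419 with vehicle (-1.43 ± 0.11, limma adjusted p = 8.68e-06). Car12, a carbonic anhydrase (-1.12), Fam162a, a mitochondrial protein (-0.86), and Plod2, a collagen lysyl hydroxylase (-0.84), also fell. Plod2 was not called without the filter (limma adjusted p = 0.117). Bnip3, a mitophagy receptor and a classical HIF target, had 998.1 and 932.9 with imatinib, against 890.2 and 918.5 with vehicle (0.09 ± 0.10). Vegfa, the angiogenic growth factor, was near the filter but below it, with 63.2 and 75.7 with imatinib, against 93.7 and 87.9 with vehicle, and Vhl and Arnt were below it too.

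None of 6 other regulators of HIF passed in limma (median log2 difference -0.07), and 0 of them had an unadjusted p under 0.05. None of 8 other pentose phosphate enzymes passed either (median 0.02), and 1 of them, Rpia, had an unadjusted p under 0.05 (0.28). Of 24 genes of pyruvate oxidation and the citrate cycle, 2 fell, where 8.73% of all tested genes were called lower. Mdh1, the cytosolic malate dehydrogenase, fell by 0.47 and Sucla2, a subunit of succinyl-CoA synthetase, by 0.39. The list's median was -0.10, and 17 of the 24 lay below 0, against 52.8% of all tested genes. With the array medians set equal, neither Mdh1 nor Sucla2 was called and 1 gene of that list was higher.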

How the data were processed

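RNA of sorted tumour-associated macrophages was measured on 2 imatinib and 2 vehicle Affymetrix arrays (200 ng of RNA each). The deposited values are signal intensities on a linear scale. The submitters' processing notes name MAS5 and Affymetrix Expression Console, with versions, settings and build not given in the sources used here. Because MAS5 brings every array to 1 target level (a 2% trimmed mean of 500.3), more signal from some transcripts means less from others.

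Of 22690 probe sets, 64 are controls and were not tested. Among the others, 20380 had 1 symbol in the platform annotation, 691 several and 1555 none. Symbols were checked by gene ID against RefSeq GRCm38.p6 (20351 matched). A gene was its brightest probe set with 1 symbol, tested where its mean on the log2 scale corresponded to a signal of at least 79.8, the 40th percentile. Analyses used log2(signal + 32), which understates changes of dim genes, and limma (lmFit, eBayes with trend, two-sided), with R 4.3.3, limma 3.58.1, Python 3.11.15, pandas 2.3.3, numpy 2.4.6 and matplotlib 3.10.9. Precision is limited by having 2 arrays a group. The procedure was tested on simulated data. All members are named, with called genes of the other lists (at most 6 each), Vegfa, Slc2a3, Bnip3, Vhl, Arnt and 5 markers. Ddit4, Egln2, Rpia, Kit, Edn3, Ano1, Prkcq, S100a8, Csf3r and Acta2 were named after their values were seen. The members and lists were chosen with earlier results of these data known. Alternatives were other pseudocounts, filters, scalings, probe set rules, variance models, a replicate block and each array left out. A crossed replicate block and a filter on the arithmetic mean were chosen after seeing the data.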

Additional observations from a re-analysis of the deposited data

How the results depend on the processing

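Of 489 values of single members under the alternatives, 423 stayed on the same side of the threshold with no called change of direction, 39 lost a call, 24 gained one and 3 turned to a call the other way. These 3 were Pfkfb3 (-0.33), Egln1 (-0.45) and Mif (-0.42), with the macrophage identity markers set equal, a scale that lowers every difference by the same amount. On it 5135 of all genes were lower and 112 higher, 23 members, 13 enzymes, 7 HIF targets and 55 other pathway genes were lower and 2 other pathway genes were higher, and the medians were -0.70 for enzymes and -0.73 for HIF targets. With array medians set equal, 1050 of all genes, 2 members, both HIF targets, and 8 other pathway genes were higher, 4 members and 1 enzyme were lower, and the medians were -0.089 and -0.11. Without the filter 356 of all genes were higher, 4 members and 2 enzymes were lower and the HIF targets' median was -0.20. With a 60th percentile filter 1 member, the HIF target P4ha1, was higher and that median was -0.14. Quantile normalization also called 1 HIF target higher. The mean of probe sets gave a HIF target median of -0.11. Without _x_at and _s_at probe sets, or with each probe set on its own, 3 enzymes were lower. Without the variance trend 199 of all genes were higher, 4 members and 1 enzyme lower. Left-out arrays gave 291 to 476 higher among all genes, 0 to 1 members higher, 3 to 5 lower, 1 to 3 enzymes lower, 2 to 4 other pathway genes higher and 6 to 11 lower, with medians from -0.29 to -0.23 for enzymes and -0.42 to -0.13 for HIF targets; 1 array then stands for its group and is assumed to vary like the rest. The causes were not tested.

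The replicate number as a block left 5 members and 2 enzymes lower. The differences between replicates 1 and 2 of the groups correlated at r = -0.127 across the tested genes. Genes are not independent replicates, so this r cannot show whether arrays of the same number share more than that number. With the numbers crossed, 875 of all genes were higher and 1087 lower, 2 members (1 of them an HIF target) higher and 10 lower.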
